A study of Mus musculus with 96 samples.

Results

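The regions described here are the outermost 10 bins at each side of the 19 mouse autosomes. Bins are the stretches of genome over which sequencing reads were tallied. They were taken by position alone: the autosomal bins were put in genome order, and the first 10 and the last 10 of each chromosome were kept. This gave 380 of the table's 4906 bins, in 38 ends of 10 bins each. The first bins are called the start of a chromosome here, and the last bins its distal end.

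The libraries came from the mouse pancreatic tumour line KPC1199EGFP, of the C57BL\6 strain background and expressing EGFP, grown as adherent cells at passage 9 with no treatment. Nuclei were stained with DAPI, sorted by DNA content, and their genomic DNA was amplified with the SeqXE kit and sequenced at the whole-genome level. The gates were 47 single nuclei labelled 2N, 35 labelled 2N+ and 12 labelled 4N, beside bulk libraries from 2N and from 2N+, 1 each. All groups share the line, the passage and the lack of treatment, and no normal mouse DNA is among them. The labels name no separate cultures, so each gate is 1 sample here: nuclei were treated as its members, and no p-values were computed. An SD over nuclei is a spread within that sample.

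Mouse chromosomes have the centromere at the very start, so the first bins lie nearest to the centromere and the last bins nearest to the far telomere. Centromeres and telomeres consist of long repeats in which short reads cannot be placed, and sequence next to them can be harder to map. An arm that breaks and is lost or joined elsewhere changes the copy number of everything from the break to the chromosome end.

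Each value is a linear ratio of a bin to its library's own genome-wide level, already smoothed by the authors into segments of equal value. Only 0.493% of neighbouring autosomal bins differed within a library. Library means over all bins were close to 1, and no 2 nuclei had identical autosomal values. Read depth is unknown, because the table holds no counts. The label of a line cannot be checked against marker genes in DNA.

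The level of an end was taken as log2 of the median of its 10 bins over the median of the other bins of its chromosome, in each nucleus. An end was called higher at 0.2 or above and lower at -0.2 or below. The same was done for the 415 non-overlapping windows of 10 bins that lie between the ends, which gives 453 regions in all.

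With the 3 gates pooled, only the start of chromosome 5 stood apart by its median. Its median over the 94 nuclei was 1.88, and the medians of the other 37 ends lay between 0.00 and 0.11. The count of ends with a median called higher was thus 1 of 38, against 0.442% of all 453 regions, and 0 of 38 were lower, against 2.87% of all regions. The 13 regions with a lower median were windows inside chromosome 2, and the only window with a higher median lay on chromosome 5. At a threshold of 0.1 the start of chromosome 16 joined as a second higher end. By gate, 3 of 38 ends had a higher median in 2N, 1 in 2N+ and 3 in 4N. Of the 415 windows, 8, 1 and 5 did. Lower medians were found at 1, 0 and 0 ends and in 20, 14 and 14 windows. In 2N the ends were the starts of chromosomes 5 (1.90), 16 (0.51) and 8 (-0.49) and the distal end of chromosome 16 (0.42).

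Nucleus by nucleus the ends varied more than their medians show. Of the 3572 values (38 ends in 94 nuclei), 260 were higher (7.28%) and 94 lower (2.63%), and 73.6% were exactly 0 because end and chromosome shared one segment level. Over all regions the shares were 3.02% higher and 4.23% lower. By gate, 7.95% of end values were higher and 2.35% lower in 2N, beside 3.26% and 4.37% of all regions. In 2N+ they were 5.34% and 2.56%, beside 2.34% and 3.75%. In 4N they were 10.3% and 3.95%, beside 4.07% and 5.08%. The start of chromosome 5 supplied 94 of the higher values. Another 188 values came from 7 ends: the starts of chromosomes 1, 8 and 16 and the distal ends of chromosomes 2, 8, 11 and 16, each in its usual direction, and 3 more from these ends lay the other way. The remaining 30 ends held 69 values beyond the threshold, 12 of them in 2N nuclei, 39 in 2N+ and 18 in 4N. The starts of chromosomes 4, 10, 15 and 19 and the distal end of chromosome 9 were beyond the threshold in 0 of 94 nuclei. With 3 counts taken as the limit where 0 were found, this allows a share of up to 3.19%.

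**Figure D1:**
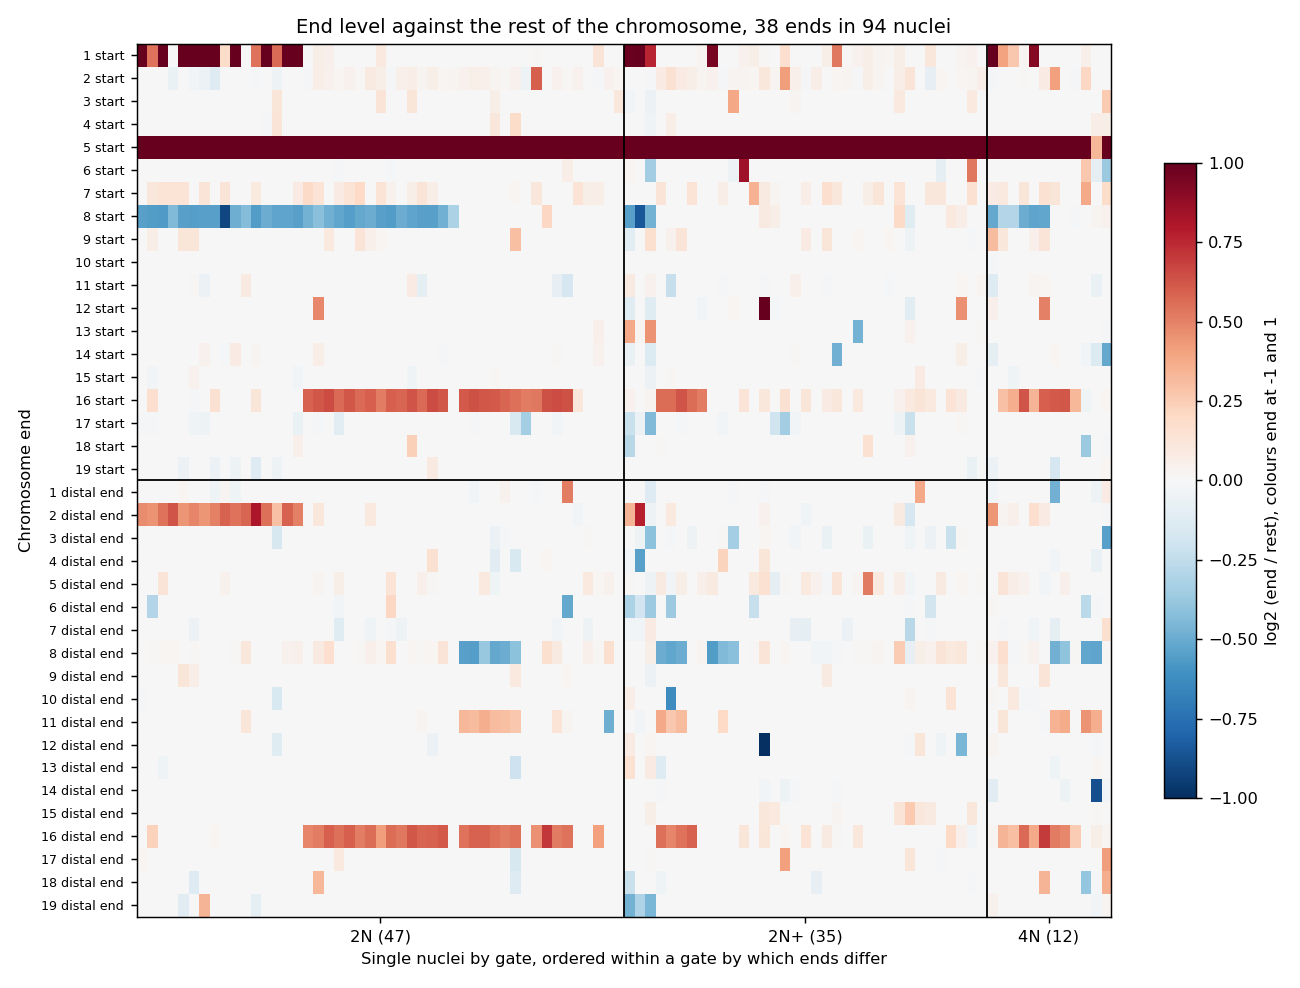
Log2 level of each of the 38 ends (vertical, starts above and distal ends below the line) against the rest of its chromosome in each of the 94 single nuclei (horizontal, by gate), red for higher and blue for lower; nuclei are ordered for display by which ends differ. The start of chromosome 5 is red in all 94 nuclei, and most other colour lies in 7 ends while the remaining 30 hold 69 values beyond 0.2.

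A level that many starts share was looked for first. Chromosomes 1, 5, 8 and 16, whose ends varied most, were set aside, and the other 15 starts were averaged within each nucleus. This mean ran from -0.026 through a median of 0.004 to 0.050 in 2N nuclei. In 2N+ nuclei it ran from -0.038 through 0.005 to 0.104, and in 4N nuclei from -0.024 through 0.007 to 0.058. All 3 medians were above 0 and at most 0.007. The same mean over the 15 distal ends had medians of 0.006 in 2N, -0.003 in 2N+ and 0.011 in 4N. A shift of this size was not tested.

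The share of calls by position was read next. Over these 15 chromosomes, 1.56% of values in the outermost bin were higher and 0.922% lower. In the tenth bin from the tip the shares were 0.993% and 0.638%. Distal ends of the same chromosomes gave 3.19% higher and 1.21% lower in the last bin, and 2.91% and 1.63% in the tenth from it. Taken over 10 bins, 1.42% of start values and 2.98% of distal values were higher, beside 1.95% of the windows of these chromosomes. Small values inside the threshold were commoner at the starts: 18.7% of start values were nonzero and under 0.2 in size, against 10.1% at the distal ends and 8.75% in the windows. At the starts 12.1% were small and above 0 and 6.6% small and below 0. The windows had 4.49% and 4.26%. Chromosomes 2 and 7 held most of this surplus: without them, 6.06% of start values were small and above 0 and 6.14% small and below 0, a split made after the values were seen.

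**Figure D2:**
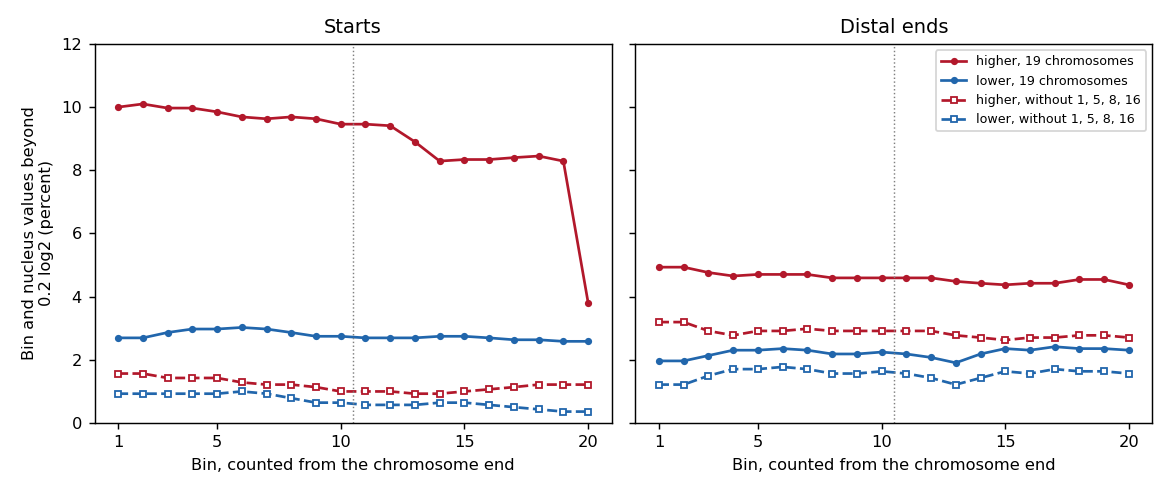
Percent of bin and nucleus values beyond 0.2 log2 (vertical) by bin counted from the chromosome end (horizontal), for starts (left) and distal ends (right), over all 19 autosomes (solid) and without chromosomes 1, 5, 8 and 16 (dashed). The dotted line marks the last of the 10 bins; the solid red line of the starts drops between bins 19 and 20, where the raised level of chromosome 5 ends.

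Correlations between chromosomes describe only what varies from nucleus to nucleus, and a level common to all nuclei does not enter them. Over the 94 nuclei, which share one culture and are each scaled to their own library, the median Pearson correlation over the 171 pairs of starts was -0.017, with a range from -0.55 to 0.32. The median Spearman value was 0.000. For pairs of distal ends the medians were 0.011 (Pearson) and 0.008 (Spearman), within a Pearson range from -0.80 to 0.46.

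The bin layout does differ at the starts. The first bin of chromosomes 2 to 19 spans a median of 3633 kb, because it begins at position 1 of the mm9 chromosome. Bins 2 to 10 of the starts have a median of 521 kb, bins 2 to 10 from the distal ends 471 kb, and the other autosomal bins 483 kb. The widest first bin is that of chromosome 14, at 8.76 Mb. Chromosome 1 begins at 3559438 in the table, so its outermost bin was not analysed here. Its table also steps from a bin at 99891381 to one at 142995387, a gap of 43.1 Mb, and holds 288 bins against 358 on chromosome 2. Its "rest" is therefore only what the table lists.

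The start of chromosome 5 was the strongest end in every gate. Its log2 level ran from 1.62 through a median of 1.90 to 2.19 in 2N nuclei (SD 0.09, n = 47). In 2N+ nuclei it ran from 1.01 through 1.87 to 2.37 (SD 0.27, n = 35), and in 4N nuclei from 0.33 through 1.88 to 2.04 (SD 0.45, n = 12). All 94 nuclei were called, and the gates overlapped almost wholly. The bulk libraries gave 1.90 (2N) and 1.91 (2N+).

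Scaled to whole copies, the rest of chromosome 5 sat at a median of 2.03 copies in 2N nuclei and its start at 7.51 (range 6.35 to 11.51). In 2N+ nuclei the start had a median of 8.39 copies, from 4.90 to 11.22. Copies here are the ratio times the multiplier, per nucleus, that brings the autosomal bins closest to whole numbers. They are relative, because a doubling of the whole genome leaves the ratios as they are.

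The raised start of chromosome 5 had 2 levels. The outer 5 bins stood at a median of 4.44 times the rest of the chromosome in 2N nuclei (SD 0.327), and bins 6 to 10 at 3 times (SD 0.228). In 2N+ the medians were 4.37 and 2.91, and in 4N 4.3 and 3. The outer bins were the higher ones in 45 of 47, 31 of 35 and 10 of 12 nuclei. The border between the levels lay at chr5:5715258 in 83 nuclei, and the inner border of the whole raised stretch at chr5:14159646 in 80 of 94, both in mm9. The higher level thus lies nearest to the centromere and still ends at one recurring inner border.

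In RefSeq's gene order for the assembly GRCm38.p6, Cdk6, a kinase that drives entry into the cell cycle, is the first protein-coding gene of this chromosome. Gatad1, Krit1 and Akap9 are among the 12 nearest to its start. Genes were not placed in bins, since that assembly is not the build of the table.

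The start of chromosome 1 was higher in 13 of 47 2N nuclei (27.7%, exact 95% interval 15.6 to 42.6), 5 of 35 2N+ (14.3%, 4.81 to 30.3) and 4 of 12 4N (33.3%, 9.92 to 65.1). These intervals overlap and cover only the counting of nuclei. The 2N+ share was 9.38% without nuclei of more than 60 breakpoints (a breakpoint is a change of value between neighbouring bins), and 8.57% with only the next 10 bins as reference. Over all regions, 7.73% were higher in at least 10% of 2N nuclei, 3.09% in 2N+ and 7.95% in 4N. Among the ends 6, 5 and 7 of 38 were. The log2 level ran from 0.00 through 0.00 to 1.52 in 2N, from 0.00 through 0.02 to 1.19 in 2N+ and from 0.00 through 0.02 to 1.51 in 4N, so that 0 nuclei had a lower start.

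In 2N and 2N+, the higher start was called only in nuclei with 2 copies of the rest of chromosome 1. The call has that rest as its reference, so the 2 are not independent. In 2N nuclei with 2 copies of the rest, 13 of 17 had a higher start, whose copies over these 17 ran from 2.05 through a median of 4.96 to 5.86. Among nuclei with 3 copies of the rest, 0 of 30 did, which allows a share of up to 10%, and the start lay between 2.80 and 3.30 copies. The 2N+ gate gave 5 of 7 and 0 of 27, which allows up to 11.1%. Where it was called, the start exceeded the rest by a median of 2.99 copies in 2N and 1.99 in 2N+. In 3 of the 17 2N nuclei with 2 copies of the rest, the start had 3 copies, like nuclei with 3 copies of the rest. In 4N, start and rest had 10 and 5 copies in 1 nucleus, 6 and 2 in 1, and 3 and 2 in 1.

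**Figure D3:**
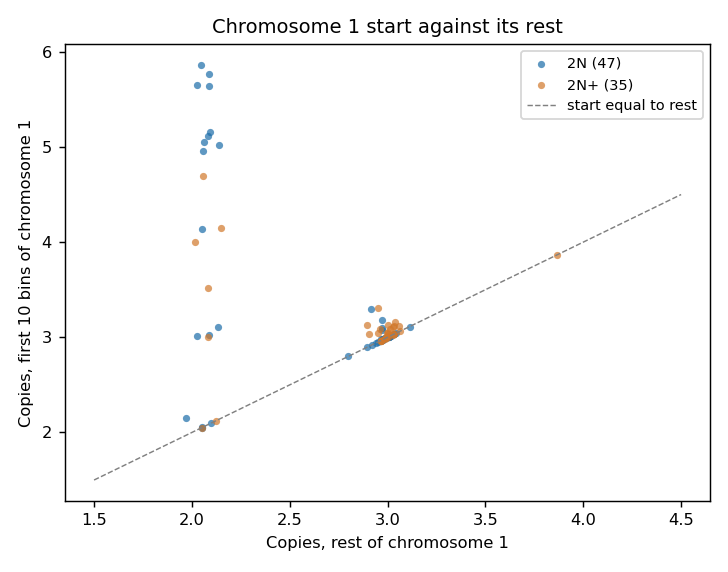
Copies of the first 10 bins of chromosome 1 (vertical) against copies of the rest of the chromosome (horizontal), 1 point per nucleus, 2N and 2N+ gates; the dashed line marks equality. Points above the line lie at 2 copies of the rest (13 of 17 2N nuclei called), and the 30 2N nuclei with 3 copies of the rest lie close to it.

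The raised stretch of chromosome 1 is short. It ended after 13 bins, at chr1:15332558, in 11 of the 22 nuclei and after 12 bins, at chr1:14785729, in 7. Beside it the table is uneven: a bin beginning at chr1:9656255 is followed by the one at chr1:14785729. Whether that wide bin sets where the border falls was not tested. In the gene order of GRCm38.p6, Xkr4 is the first protein-coding gene of the chromosome, and Sox17, a transcription factor of endoderm, and Oprk1, an opioid receptor, are among the 12 nearest to its start.

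Chromosome 8 was lower at its start, the opposite direction to chromosomes 1 and 5. The start was called lower in 31 of 47 2N nuclei (66%, interval 50.7 to 79.1), 3 of 35 2N+ (8.57%, 1.8 to 23.1) and 6 of 12 4N (50%, 21.1 to 78.9). Regions lower in at least 10% of nuclei made up 8.17% of the 453 in 2N, 6.4% in 2N+ and 9.71% in 4N, and among the ends 2, 3 and 2 of 38 were. Its log2 level ran from -0.91 through a median of -0.49 to 0.21 in 2N, from -0.85 through 0.00 to 0.19 in 2N+, and from -0.53 through -0.15 to 0.04 in 4N. The 2N and 2N+ ranges overlapped, with intervals of the share that did not. Both gates are 1 sample, so no test of this difference was possible.

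In copies, 30 of the 47 2N nuclei had 2 at the start of chromosome 8 and 3 over the rest, 11 had 3 and 3, and 5 had 2 and 2. The changed stretch was mostly long. Of the 41 nuclei beyond the threshold, 40 were lower and 1 higher. The border lay 76 bins in, at chr8:43640396, in 35 of the 41, and only 1 had its border within the 10 bins. In the gene order of GRCm38.p6, Insr, the insulin receptor, is the first protein-coding gene of the chromosome.

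The distal end of chromosome 8 was lower in 6 of 47 2N, 6 of 35 2N+ and 4 of 12 4N nuclei. Log2 levels reached -0.55, -0.56 and -0.53 and had a median of 0.00 in each gate. The lower start and the lower distal end were called together in 0 of 47, 0 of 35 and 0 of 12. The 2 lower stretches most often reached 76 and 80 bins in. A nucleus with both could thus lower the rest that each end is set against, and neither would be called. Whether the 2 losses exclude each other was not tested. Among the 12 protein-coding genes nearest to this distal end in GRCm38.p6 are Itgb1, an integrin subunit, and Nrp1, a co-receptor of growth factors and semaphorins.

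Chromosome 16 was raised at both sides. Its start was higher in 25 of 47 2N, 5 of 35 2N+ and 8 of 12 4N nuclei. Its distal end was higher in 26, 5 and 8. In 2N+ the share for the start was 14.3%, and 37.1% at a threshold of 0.1. The start ran from -0.02 through 0.51 to 0.65 in 2N, from 0.00 through 0.04 to 0.63 in 2N+ and from -0.04 through 0.33 to 0.63 in 4N. The distal end ran from 0.00 through 0.42 to 0.71, from -0.03 through 0.00 to 0.59, and from 0.00 through 0.32 to 0.70.

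Both sides of chromosome 16 were raised in 24 2N nuclei, 4 2N+ nuclei (8 at a threshold of 0.1) and 8 4N nuclei (5 without nuclei whose copies lay over 0.15 from whole numbers). The 2 contrasts share their chromosome's rest, and their Pearson correlation over the 94 nuclei was 0.93. In 25 of the 47 2N nuclei the start had 3 copies and the rest 2. In 18 of the 35 2N+ nuclei the start and the rest both had 3. Median copies of the start were 2.97 in 2N and 2.99 in 2N+, with the rest at 2.01 and 2.90. The medians of the start were thus alike in these gates, and those of the rest differed. The borders most often lay 32 bins in from the start, at chr16:19135649 (23 of 38 nuclei), and 30 bins in from the distal end, at chr16:83740532 (23 of 39). The ends thus carried the level of the outer parts of the chromosome, over a rest that had 2 copies in most called 2N nuclei. In 4N, start and rest had 4 and 3 copies in 1 nucleus, 5 and 4 in 1, and 6 and 4 in 1. Tmprss2, a membrane serine protease, and Dscam, an adhesion molecule of neurons, are among the 12 protein-coding genes nearest to the distal end in GRCm38.p6.

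The distal end of chromosome 2 was higher in 16 of 47 2N nuclei (34%, interval 20.9 to 49.3), 2 of 35 2N+ (5.71%, 0.7 to 19.2) and 1 of 12 4N. Levels ran from -0.03 through 0.00 to 0.81 in 2N, from -0.17 through 0.00 to 0.78 in 2N+ and from -0.01 through 0.00 to 0.44 in 4N. Its border lay 167 bins in, at chr2:97908371, in 15 of 19 nuclei. In copies, 13 of the 47 2N nuclei had 3 at the end and 2 over the rest, and 2 had 4 and 2. Another 23 had 3 and 3, 6 had 4 and 4, and 3 had 2 and 2. Most called 2N nuclei thus had 3 copies at the end, like the 23, but over a rest of 2. The transcription factors Myt1 and Sox18 are among the 12 protein-coding genes nearest to this end in GRCm38.p6.

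The distal end of chromosome 11 was higher in 6 of 47 2N, 4 of 35 2N+ and 4 of 12 4N nuclei, and lower in 1 2N nucleus. Its highest levels were 0.36, 0.38 and 0.45. The border most often lay 56 bins in, at chr11:95625099 (9 of 15 nuclei). Tbcd, a cofactor of tubulin folding, and the transcription factor Foxk2 are among the 12 genes nearest to it in that gene order.

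**Figure D4:**
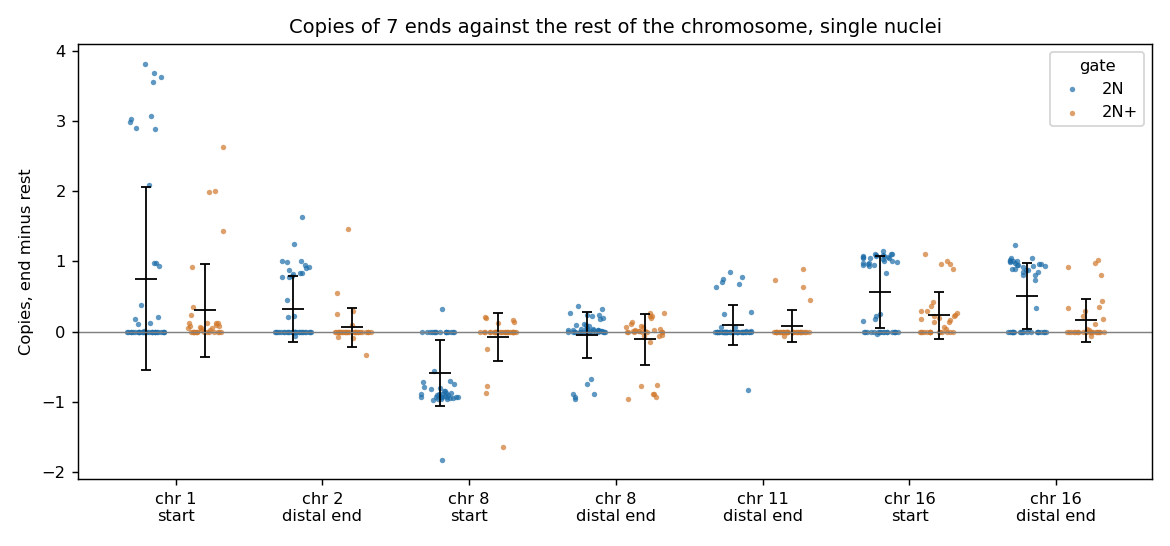
Copies of 7 ends minus copies of the rest of their chromosome (vertical), 1 point per nucleus of the 2N and 2N+ gates, with the mean and SD over nuclei in black. Points gather near 0 and near a gain or loss of 1 copy, and those of the start of chromosome 1 reach 3.82 copies.

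Without the start of chromosome 5, 207 end values of 2N and 2N+ nuclei lay beyond the threshold. In 153 of them (73.9%) the end lay within 0.2 copies of a whole number, 83.9% in 2N and 54.3% in 2N+. The copies of the rest did not enter this count. This is a description of the scaled values, since the multiplier of each nucleus was chosen to bring its bins close to whole numbers.

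Where an end was called, the inner border of the whole raised or lowered stretch mostly lay beyond the end bins. At the 14 named ends, 8 of 311 values beyond the threshold had this border within the 10 bins. Without the start of chromosome 5 these were 8 of 217. The border between the 2 levels of chromosome 5, after bin 5 in 83 nuclei, is not counted here. A call rests on the median of 10 bins, so a change in only the few outermost bins did not enter this count. When each end was set against only the 10 bins next to it, 165 values lay beyond the threshold in place of 354. The starts of chromosomes 5 and 1 kept most of theirs, 85 of 94 and 20 of 22. For the other 36 ends, 238 values became 60, and 35 of these were beyond the threshold by both measures. By this local measure the start of chromosome 5 had a median of 0.32 in 2N, 0.32 in 2N+ and 0.28 in 4N, since the 10 bins next to it are themselves raised.

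The changed ends fell into recurring combinations. In the 2N gate, all 13 nuclei with a higher start of chromosome 1 also had a higher distal end of chromosome 2 and a lower start of chromosome 8. All 16 with a higher distal end of chromosome 2 had the lower start of chromosome 8. None of these 16 had a higher start of chromosome 16, although 25 of the 47 nuclei did. At a threshold of 0.1, 5 2N nuclei and 1 4N nucleus had both. Of the 25, 14 had a lower start of chromosome 8. The other gates were less regular. In 2N+, 2 of the 5 nuclei with a higher start of chromosome 1 had the higher distal end of chromosome 2 and 3 had the lower start of chromosome 8. In 4N these were 1 and 4 of 4.

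A separate combination joined chromosomes 8 and 11. The higher distal end of chromosome 11 and the lower distal end of chromosome 8 were found in the same 6 2N nuclei and the same 4 4N nuclei. In 2N+ the 4 nuclei with the former were among the 6 with the latter. All 6 of the 2N nuclei were also raised at both sides of chromosome 16. At a threshold of 0.3 the pair of distal ends was called together in 4 2N, 2 2N+ and 4 4N nuclei.

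Counted over the 7 ends, the commonest combination in 2N was a lower start of chromosome 8 with both raised sides of chromosome 16, in 14 of 47 nuclei. Next came the trio of chromosomes 1, 2 and 8, in 12. In 2N+ 22 of 35 nuclei held none of the 7 changes, against 4 of 47 in 2N and 1 of 12 in 4N. A change is a call against the rest of the chromosome, so an end raised together with its rest does not count. The 4N gate also held 3 nuclei with the gain of chromosome 1 and the raised sides of chromosome 16 together. At the starts this pair was found in 0 of 47 2N nuclei, and 1 2N nucleus had the gain with a raised distal end of chromosome 16. At a threshold of 0.3, or without nuclei whose copies lay over 0.15 from whole numbers, 1 of the 3 was left, and at 0.1 the starts of both chromosomes were higher in 3 2N nuclei. Wells holding more than 1 nucleus were not looked for. These combinations were chosen after their values were seen, and nuclei of 1 culture may descend from one another, so they carry no test.

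Per nucleus, the number of ends beyond the threshold ran from 1 through a median of 4 to 7 in 2N, from 1 through 2 to 10 in 2N+ and from 3 through 5 to 9 in 4N. The 6 nuclei with more than 60 breakpoints (3 of 2N+, 3 of 4N) had a median of 6, and the other 88 nuclei of 4. Without those 6 nuclei, the higher start of chromosome 1 and the lower start of chromosome 8 coincided in 1 2N+ nucleus in place of 3.

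The rest of the ends named by the preset rule were called in few nuclei. The start of chromosome 17 was lower in 4 of 35 2N+ nuclei and in 1 of 47 2N, but without nuclei of over 60 breakpoints its 2N+ share fell to 3.12%. The distal end of chromosome 6 was lower in 2, 4 and 1 nuclei of the 2N, 2N+ and 4N gates. Its 2N+ share of 11.4% was 6.25% without nuclei of over 60 breakpoints and 5.71% with 20 bins per end. There the tip differed from the bins behind it: the last bin was higher in 7 nuclei, the fifth from the tip was lower in 7, and 3 nuclei had both. Over the 94 nuclei, the start of chromosome 2 was higher in 4 and the distal end of chromosome 5 in 1. The distal end of chromosome 18 was higher in 3 and lower in 2, and that of chromosome 1 higher in 2 and lower in 1.

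The ends of a chromosome moved apart on some chromosomes and together on others. On chromosome 12 the Pearson correlation of the 2 ends over the 94 nuclei was -0.89. It rests on 2 nuclei, with 1.38 and 0.46 at the start and -1.38 and -0.46 at the distal end. It was -0.57 on chromosome 3, and 0.49, 0.48 and 0.41 on chromosomes 9, 18 and 13. Each end is set against all other bins of its chromosome, the opposite end included, so these values are not independent. A single step near the middle of a chromosome can thus be read at both ends with opposite signs. Whether the mirrored values of the 2 nuclei on chromosome 12 come from 1 step was not tested.

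A weaker and one-sided deviation was seen at the start of chromosome 7. It lay above 0 in 45 of 94 nuclei and below 0 in 0, and 43 of the 45 were inside the threshold. Where it was above 0, the median was 0.13 in 2N, 0.11 in 2N+ and 0.12 in 4N. Inside the threshold this came to a median of 0.16, 0.17 and 0.20 copies, short of a whole copy. The bulk libraries gave 0.15 and 0.12. The first border lay 65 bins in, at chr7:56081511, in 16 of the 43. Small values lay mostly above 0 at other starts too, those of chromosomes 2 (53 above, 18 below), 1 (24 and 0), 16 (20 and 2) and 9 (17 and 3). The same held for the distal ends of chromosomes 8 (49 and 8) and 5 (33 and 9). They lay mostly below 0 at the start of chromosome 17 (1 and 19) and the distal end of chromosome 7 (2 and 16).

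The bulk libraries gave a separate reading of 2 of the gates. Across the 37 ends other than the start of chromosome 5, the bulk value and the value from the mean of the single nuclei had a Pearson correlation of 0.911 in 2N and 0.594 in 2N+. These correlations are across ends of 1 library, not across replicates. The 2N bulk had 0.49 at the start of chromosome 1 (nuclei 0.37), -0.25 at the start of chromosome 8 (-0.31) and 0.34 at the start of chromosome 16 (0.33). It differed most at the distal end of chromosome 11, with -0.11 against 0.04. The 2N+ bulk differed most at the distal end of chromosome 16, with 0.29 against 0.05.

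**Figure D5:**
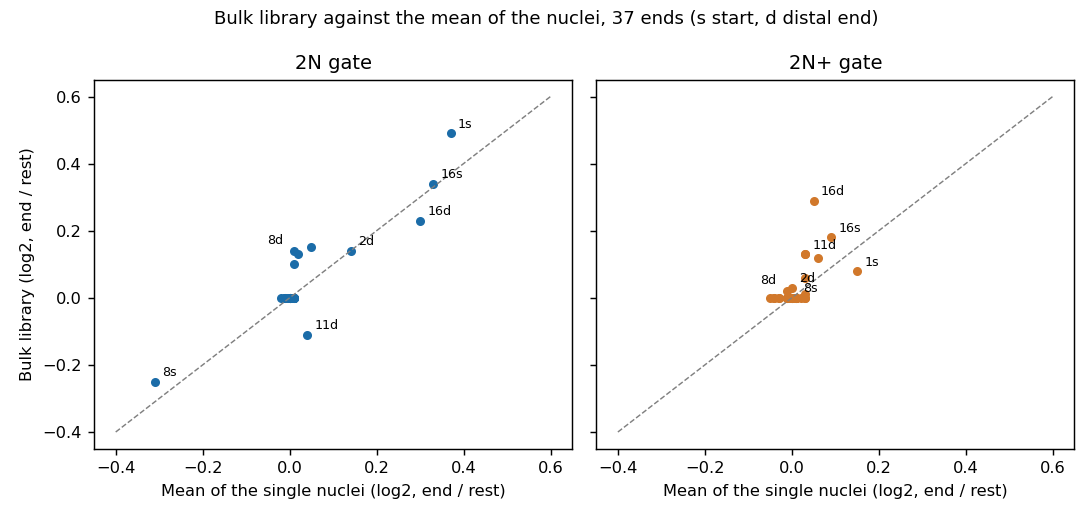
Log2 level of 37 ends in the bulk library (vertical) against the level from the mean of the single nuclei (horizontal), 2N gate left and 2N+ gate right, with the start of chromosome 5 left out; the dashed line marks equality, and 7 ends are marked by chromosome number with s for start and d for distal end. In 2N the start of chromosome 8 is low in both (-0.25 and -0.31), and in 2N+ the distal end of chromosome 16 lies above the line (0.29 and 0.05).

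Breakpoints were densest in the starts, and chromosome 5 held most of them. Per 1000 bin boundaries, starts had 8.65 per nucleus (SD 5.8 over 94 nuclei), distal ends 3.24 (SD 4.82) and the bins between 4.87 (SD 3.69). Chromosome 5 held 87 of the 139 breakpoints of the starts, 83 of them at its border between levels. Without it the starts had 3.41 (SD 5.91), and without chromosomes 1, 5 and 8 starts, distal ends and the bins between had 2.73, 3.47 and 4.11. Whether these densities differ was not tested.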

How the data were processed

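Whole-genome sequencing of 94 single nuclei and 2 bulk libraries was analysed from 1 table of 4906 bins and 96 libraries. The submitters' processing notes name Bowtie 1.0 and mm9. How bins were made, reads corrected and segments called is not given in the sources used here. Values were deposited by the authors as linear ratios to the library's genome-wide level, already segmented, not counts, as read from the values. Smoothing spreads 1 level over many bins, so a change in few bins may not be seen. Each line holds 99 fields once split on white space.

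End contrasts, a threshold of 0.2 log2, windows and copies (multipliers from 1.5 to 6 in steps of 0.05) were computed with Python 3.11.15, numpy 2.4.6 and pandas 2.3.3, exact intervals with scipy 1.17.1. Named ends were those with a median beyond the threshold, a call in at least 10% of a gate's nuclei, 1 of the 5 widest SDs, or a place on chromosomes 1, 5 or 8. The members, lists and rules were chosen with earlier results of these data known. The calculation was tested on simulated data with little noise, which checks the arithmetic and not the error rate in real nuclei. Gene order came from RefSeq's table for GRCm38.p6, read without coordinates and without genes listed below position 3000000, which lie on separate scaffolds. Alternative thresholds, bin numbers, references and sets of nuclei are in the closing section.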

Additional observations from a re-analysis of the deposited data

How the results depend on the processing

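No paired analysis was possible because the result comes from no test: replicate numbers only name nuclei, and each gate is 1 sample. Of the summary results, the counts of ends changed most. With a threshold of 0.1, 2 ends had a higher median, and 10 ends in 2N+ and 11 in 4N were higher, and 4 in 4N lower, in at least 10% of nuclei. At 0.3, 1 end was lower in 2N+. With only the next 10 bins as reference, 2, 1 and 2 ends were higher in 2N, 2N+ and 4N, and 0, 0 and 1 lower. This follows from long segments, which take in the reference. Without the 6 nuclei of more than 60 breakpoints, 1 end was lower in 2N+ and 6 in 4N. Without the 8 nuclei whose copies lay over 0.15 from whole numbers, a choice made after seeing the data, 1 end was lower in 2N+, and 14 were higher and 10 lower in 4N. In 4N fewer nuclei are left, so that 1 nucleus passes the 10%. Breakpoints in starts fell to 2.73 per 1000 boundaries without chromosomes 1, 5 and 8. The mean copy difference of the distal end of chromosome 18 in 4N, 0.05 (SD 0.45), turned to -0.02 without nuclei of more than 60 breakpoints, the only copy difference whose sign turned. Of the values for single ends and pairs of ends, 38 moved, 18 of them with the next 10 bins as reference and 8 at the threshold of 0.1. The counts of ends with 5 or 20 bins per end, with the mean for the median or without the outermost bin stayed within 1.5 times the first value, and the medians over chromosomes and the copy differences within 1 SD under every alternative run. The limits are the unknown depth, 1 culture, the authors' smoothing, the absence of normal mouse DNA and the bins of chromosome 1 not analysed here.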
